A study of Mus musculus with 18 samples.

Results

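The genes described here encode the receptor chains for IL-4 and IL-13, the kinases and the transcription factor that act behind them, and the feedback inhibitors of that pathway, measured by RNA-seq in mouse bone marrow-derived macrophages. They are Il4ra, Il13ra1, Il2rg, Jak1, Jak3, Tyk2, Stat6, Socs1, Socs3 and Cish. Each was found by matching its symbol to an Ensembl gene identifier in the GENCODE M21 annotation of GRCm38, which gave 10 genes of the 48794 in the count table, and all 10 passed the filter on low counts. Macrophages were grown from marrow of male C57BL/6 mice over 7 days in recombinant human M-CSF at 50 ng/ml, and every group then received M-CSF at 10 ng/ml for 24 h. The IL4_IL13_TNFa group also received recombinant mouse IL-4, IL-13 and TNFa at 10 ng/ml each, the IL4_IL13 group received IL-4 and IL-13 at 10 ng/ml each, and the Control group received M-CSF alone. Each group had 6 libraries. No group received TNFa without the other cytokines, and none received IL-4 or IL-13 singly, so neither the effect of TNFa by itself nor the share of each interleukin can be read from these data.

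IL-4 and IL-13 are ligands that share the receptor chain IL-4Ra, encoded by Il4ra. IL-4Ra pairs with the common gamma chain, encoded by Il2rg, to form the type I receptor, which binds IL-4, and with IL-13Ra1 to form the type II receptor, which binds both ligands. JAK1, JAK3 and TYK2 are kinases that sit on these chains and phosphorylate the transcription factor STAT6, which drives the program of alternatively activated macrophages. SOCS1, SOCS3 and CIS, the product of Cish, belong to a family of inhibitors that are induced by cytokines and limit signalling from their receptors.

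Libraries held 15645117 to 17808553 counts in the IL4_IL13_TNFa group, 14793404 to 20056125 in the IL4_IL13 group and 15744544 to 19309743 in the Control group. Control replicate 1 stood apart, in that 1836 of its genes differed more than 2-fold from the average of the 5 remaining controls, where the same count for any other library within its own group was at most 393. In that library Il4ra, Jak1, Jak3, Tyk2 and Socs1 lay below the range of the other 5 controls, and the other 5 genes lay within it. CPM values are counts scaled to library size, with a correction for composition by TMM. The 7 macrophage markers examined summed to 8160 to 8950 CPM in the IL4_IL13_TNFa group and 7850 to 9570 CPM in the IL4_IL13 group. In the Control group they summed to 13600 to 24300 CPM. Lyz2, a large part of that sum, averaged 3190, 2848 and 12005 CPM in this order of groups, and Cd68 averaged 850, 1080 and 760 CPM. At the threshold given below, 1 of the 7, Cd68, was higher and 6 were lower in each cytokine group than in Control. Among all genes 29.3% were higher and 29.7% lower for IL4_IL13 against Control, and 36.4% and 37.3% for IL4_IL13_TNFa against Control. The 8 T and NK cell markers summed to at most 1.36 CPM in any library, with Cd3d and Nkg7 at 0 in all 18. The 5 dendritic cell markers summed to 34.1 to 37.3 CPM in the IL4_IL13_TNFa group, 2.43 to 5.22 CPM in the IL4_IL13 group and 1.10 to 3.20 CPM in the Control group. Only 2 of them passed the filter on low counts, and they moved in opposite directions. Zbtb46 averaged 33.9, 2.76 and 0.709 CPM in the same order of groups, and Flt3 averaged 0.290, 0.541 and 0.858 CPM. Ccr7, which did not pass that filter, had 121, 3 and 5 counts in all libraries of these groups together. The 4 eosinophil markers summed to 46.8 to 53.6, 19.2 to 23.1 and 0.71 to 1.64 CPM in the same order of groups, with Epx at 0 in all 18 libraries and Siglecf the single gene of the 4 that passed the filter on low counts. In such bulk samples fewer cells of a type and less RNA per cell cannot be told apart, and the part of these shifts in the results below was not tested.

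Of the 10 genes, 3 were higher and 5 lower in IL4_IL13 than in Control macrophages at a Benjamini-Hochberg adjusted p under 0.05 in edgeR's quasi-likelihood test, and 2 did not pass. Among all 13177 genes tested in that comparison 59.0% passed, 29.3% as higher and 29.7% as lower. With TNFa added to IL-4 and IL-13, 6 of the 10 were higher, 0 were lower and 4 did not pass, against 59.6% of all genes passing, 30.3% as higher and 29.3% as lower. Between IL4_IL13_TNFa and Control macrophages 5 of the 10 were higher, 3 were lower and 2 did not pass, against 73.8% of all genes passing, 36.4% as higher and 37.3% as lower. Passing the threshold was thus common in this experiment, and the counts for the 10 genes are to be read against these shares. The median absolute log2 fold change of the 10 genes was 0.85 for IL4_IL13 against Control, 0.77 for IL4_IL13_TNFa against IL4_IL13 and 0.87 for IL4_IL13_TNFa against Control, and over all genes tested it was 0.33, 0.34 and 0.53. The signed medians for the 10 were -0.13, 0.77 and 0.63 in that order of comparisons, with medians over all genes between -0.02 and 0.003. Because the 10 genes were chosen with earlier results of these data known, these medians are descriptions and no test against all genes. The comparisons share groups, so their results are not independent of each other.

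**Figure D1:**
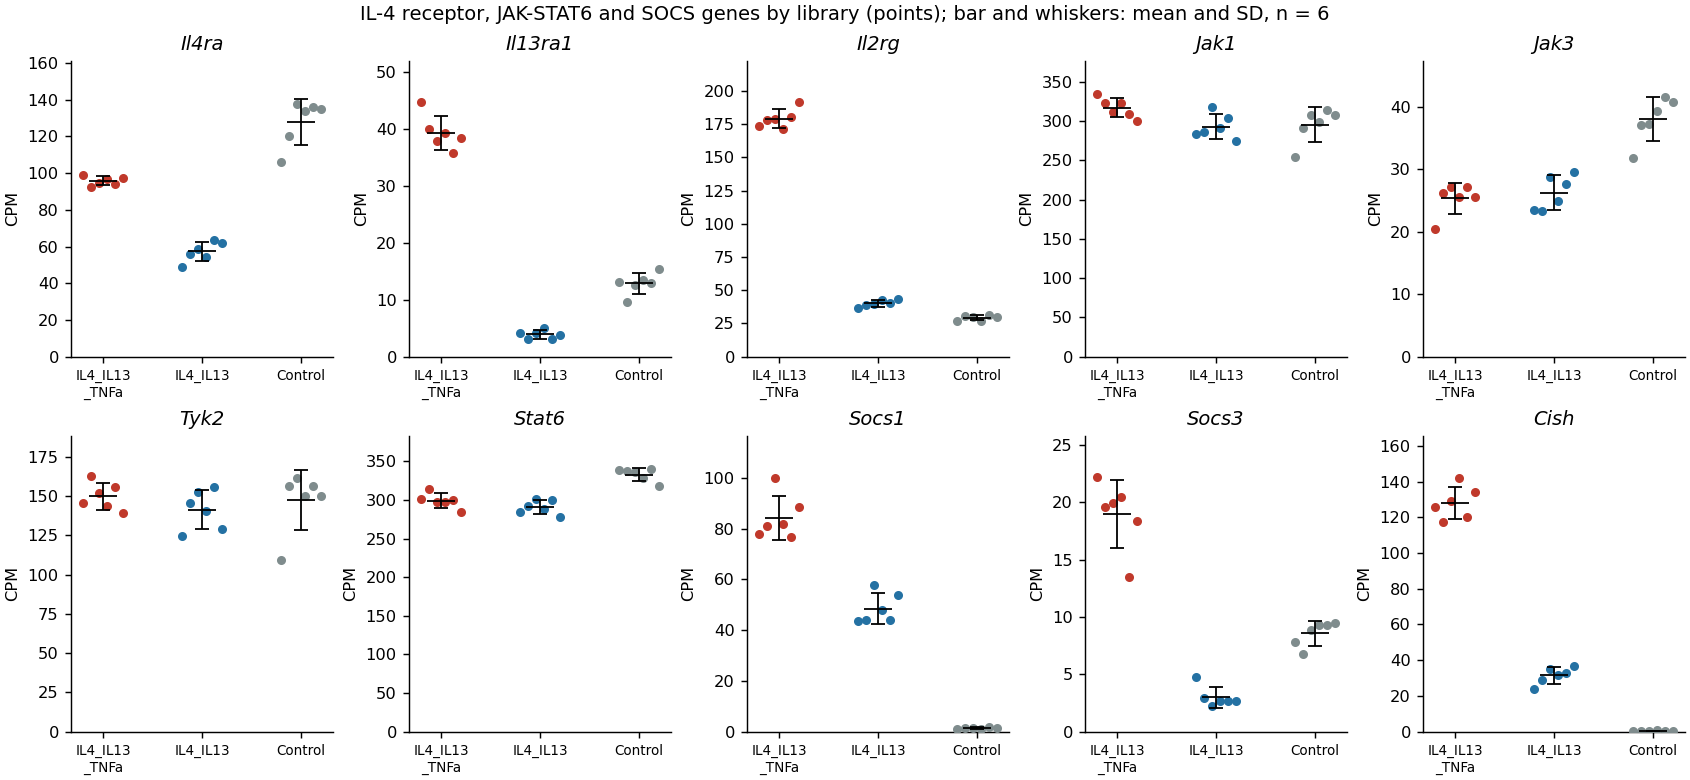
Normalised expression of each of the 10 genes in CPM (vertical axis, from 0) in the 6 libraries of the IL4_IL13_TNFa, IL4_IL13 and Control groups (points), with the mean and SD of each group. Cish and Socs1 are near 0 in the Control group, Il13ra1 and Socs3 are lowest in the IL4_IL13 group, and the groups overlap for Jak1 and Tyk2.

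Among the receptor chains, Il4ra was highest in Control macrophages and lowest with IL-4 and IL-13, Il13ra1 fell with IL-4 and IL-13 and rose above Control when TNFa was present, and Il2rg rose at each step. Il4ra (chr7:125552120-125579474, plus strand) encodes the chain that both receptor types use and that STAT6 docks on. It ranged from 92.6 to 99.2 CPM (median 95.8) in the IL4_IL13_TNFa libraries, from 49.1 to 63.8 CPM (median 57.2) in the IL4_IL13 libraries and from 106 to 137 CPM (median 134) in the Control libraries. The 3 ranges do not overlap, with the libraries given TNFa between the others. Its log2 fold change was -1.16 ± 0.07 (SE, 6 libraries against 6, edgeR adjusted p = 5.3e-11) for IL4_IL13 against Control, a level 2.23-fold lower. Adding TNFa gave a log2 fold change of 0.74 ± 0.07 over IL4_IL13 (adjusted p = 1.7e-08), and IL4_IL13_TNFa macrophages remained below Control (log2 fold change -0.42 ± 0.07, adjusted p = 1.5e-05).

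Il13ra1 (chrX:36112110-36171259, plus strand) encodes the chain that makes the type II receptor and lets IL-13 signal. Its level was 35.8 to 44.6 CPM (median 38.8) in the IL4_IL13_TNFa libraries, 3.04 to 5.09 CPM (median 4.005) in the IL4_IL13 libraries and 9.58 to 15.4 CPM (median 13.1) in the Control libraries. Each group lay clear of the other 2, and the IL4_IL13 libraries held 46 to 90 counts of this gene each. The gene was 3.26-fold lower in IL4_IL13 than in Control macrophages (log2 fold change -1.71 ± 0.12, adjusted p = 9.2e-10). It was 10.0-fold higher in IL4_IL13_TNFa than in IL4_IL13 macrophages (log2 fold change 3.32 ± 0.12, adjusted p = 5.9e-14) and 3.06-fold higher than in Control macrophages (log2 fold change 1.62 ± 0.11, adjusted p = 1.6e-10). Among the 10 genes this was the largest fold change between IL4_IL13_TNFa and IL4_IL13.

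Il2rg (chrX:101264378-101268255, minus strand) encodes the common gamma chain, a subunit it shares with the receptors for IL-2, IL-7, IL-9, IL-15 and IL-21. Its level was 172 to 192 CPM (median 179) in the IL4_IL13_TNFa libraries, 36.3 to 43.6 CPM (median 40.2) in the IL4_IL13 libraries and 26.7 to 31.4 CPM (median 29.5) in the Control libraries. The order of the groups was the same in all 6 replicate numbers. Il2rg rose 1.38-fold with IL-4 and IL-13 (log2 fold change 0.46 ± 0.05, adjusted p = 4.4e-07), and in IL4_IL13_TNFa macrophages it stood 4.45-fold above IL4_IL13 (log2 fold change 2.16 ± 0.05, adjusted p = 2.0e-16) and 6.15-fold above Control (log2 fold change 2.62 ± 0.05, adjusted p = 1.0e-17). This chain is best known from lymphocytes. In any library the T and NK cell markers summed to no more than 1.36 CPM and the B cell markers to no more than 3.20 CPM. Whether cells other than macrophages contributed to the level of Il2rg was not tested. A further annotated gene on the same strand, Gm20489, shares 728 exonic bases with Il2rg and had 0 counts in all 18 libraries, and how reads from the shared stretch were counted was not tested.

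The balance between the 2 chains that can pair with IL-4Ra moved with treatment. Within each library the log2 ratio of Il2rg to Il13ra1, per kilobase of exon, was 2.60 to 2.97 (mean 2.83) in the IL4_IL13_TNFa libraries, 3.68 to 4.35 (mean 4.01) in the IL4_IL13 libraries and 1.57 to 2.32 (mean 1.83) in the Control libraries. Transcripts of the gamma chain exceeded those of IL-13Ra1 in all 18 libraries, by most in the IL4_IL13 group. The ratio was 4.53-fold higher in IL4_IL13 than in Control libraries, as a difference of 2.18 on the log2 scale. It was 2.27-fold lower in IL4_IL13_TNFa than in IL4_IL13 libraries, a difference of -1.18, and 2.00-fold higher in IL4_IL13_TNFa than in Control libraries, a difference of 1.00. Each of these 3 differences had an exact two-sided permutation p of 0.00216, the smallest that 6 libraries against 6 can give (0.00244 after adjustment over the 9 ratio tests made). That test takes the libraries as unpaired. A ratio within a library does not depend on the scaling between libraries.

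Transcripts of the ligands and of the decoy receptor were close to absent. Il4 had 1 count in all IL4_IL13_TNFa libraries together, 1 in the IL4_IL13 libraries and 4 in the Control libraries, Il13 had 0, 0 and 1, and Il13ra2, which encodes a decoy receptor for IL-13, had 16, 7 and 1. None of the 3 passed the filter on low counts.

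Among the kinases and STAT6, Jak1 and Tyk2 passed in none of the 3 comparisons, while Jak3 and Stat6 were lower in both cytokine groups than in Control. Jak1 (chr4:101152367-101265282, minus strand) encodes the kinase bound to IL-4Ra. It ranged from 301 to 335 CPM (median 317) in IL4_IL13_TNFa libraries, from 275 to 318 CPM (median 288) in IL4_IL13 libraries and from 254 to 315 CPM (median 303) in Control libraries, and the ranges overlap. Its log2 fold changes were -0.01 ± 0.05 for IL4_IL13 against Control (adjusted p = 0.83), 0.12 ± 0.05 for IL4_IL13_TNFa against IL4_IL13 (adjusted p = 0.062) and 0.10 ± 0.05 for IL4_IL13_TNFa against Control (adjusted p = 0.083). The difference between IL4_IL13_TNFa and IL4_IL13 passed the threshold when any 1 of 3 libraries was left out: the adjusted p was 0.014 without Control replicate 1, 0.029 without IL4_IL13 replicate 3 and 0.045 without IL4_IL13_TNFa replicate 6.

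Tyk2 (chr9:21104068-21131243, minus strand) encodes the kinase that sits on IL-13Ra1. Its level was 140 to 163 CPM (median 149) in IL4_IL13_TNFa libraries, 125 to 156 CPM (median 143) in IL4_IL13 libraries and 109 to 162 CPM (median 153) in Control libraries, with overlap among all 3 groups. The log2 fold changes were -0.06 ± 0.08 for IL4_IL13 against Control (adjusted p = 0.54), 0.08 ± 0.08 for IL4_IL13_TNFa against IL4_IL13 (adjusted p = 0.39) and 0.03 ± 0.08 for IL4_IL13_TNFa against Control (adjusted p = 0.78). Without Control replicate 1, whose 109 CPM was the lowest value of the gene, IL4_IL13 lay below Control (log2 fold change -0.13, adjusted p = 0.044).

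Jak3 (chr8:71676296-71690575, plus strand) encodes the kinase bound to the common gamma chain. It ranged from 20.4 to 27.1 CPM (median 25.8) in IL4_IL13_TNFa libraries, from 23.2 to 29.5 CPM (median 26.3) in IL4_IL13 libraries and from 31.8 to 41.5 CPM (median 38.3) in Control libraries. Both cytokine groups lay below every Control library and overlapped each other. The gene was 1.45-fold lower in IL4_IL13 than in Control macrophages (log2 fold change -0.53 ± 0.08, adjusted p = 2.4e-05) and 1.5-fold lower in IL4_IL13_TNFa than in Control macrophages (log2 fold change -0.59 ± 0.08, adjusted p = 3.8e-06). Between IL4_IL13_TNFa and IL4_IL13 its log2 fold change was -0.05 ± 0.08 (adjusted p = 0.61), and -0.26 (adjusted p = 0.012) with libraries scaled by their totals, a setting described with Stat6. Jak3 and the chain its product binds thus moved in opposite directions against Control. Insl3 shares 404 exonic bases with Jak3 on the same strand, and its count was 2.17% of that of Jak3.

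Stat6 (chr10:127642986-127660957, plus strand) encodes the transcription factor at the end of this pathway. It ranged from 284 to 314 CPM (median 299) in IL4_IL13_TNFa libraries, from 278 to 301 CPM (median 290) in IL4_IL13 libraries and from 318 to 340 CPM (median 337) in Control libraries. Both cytokine groups lay wholly below Control, by a small margin. The log2 fold change was -0.19 ± 0.03 for IL4_IL13 against Control (adjusted p = 0.00011) and -0.16 ± 0.03 for IL4_IL13_TNFa against Control (adjusted p = 0.00056). With TNFa added to IL-4 and IL-13 it was 0.04 ± 0.03 (adjusted p = 0.34), which turned to -0.17 (adjusted p = 0.00021) when libraries were scaled by their totals alone. That scaling shifted the median of all genes by -0.21 for IL4_IL13_TNFa against IL4_IL13 and by -0.25 for IL4_IL13_TNFa against Control. It gave 27.5% and 32.7% of calls as higher in those comparisons, where TMM gave 50.9% and 49.4%, and under it the estimates for Jak1 and Tyk2 also turned below 0 in both, past the threshold against Control (adjusted p = 0.0127 and 0.0177). The TMM values given above are relative to that shift. Nab2, on the opposite strand, overlaps 40 exonic bases of Stat6, and its count summed over all libraries was 28.3% of that of Stat6. The strand setting of the counting is not given in the sources used here.

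**Figure D2:**
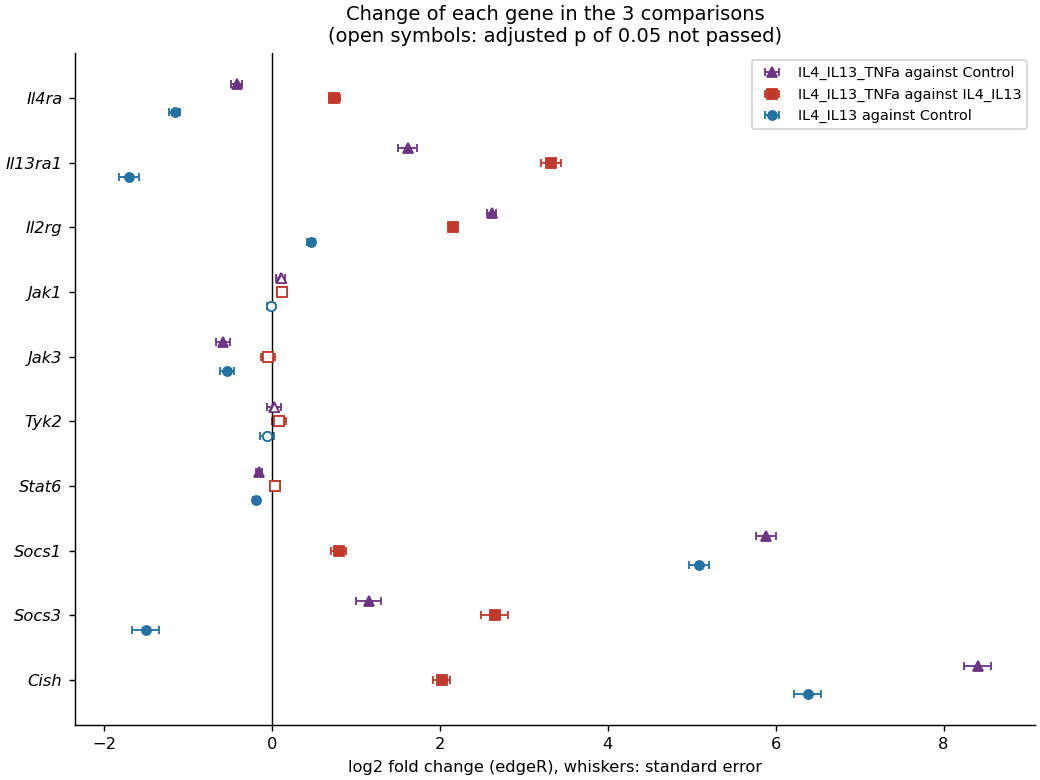
Log2 fold changes of the 10 genes (horizontal axis; whiskers, SE of the edgeR estimate) in the 3 comparisons, with open symbols where the adjusted p did not pass 0.05. Cish and Socs1 lie furthest to the right for both cytokine groups against Control, Il4ra, Il13ra1 and Socs3 lie below 0 for IL4_IL13 against Control and above 0 for IL4_IL13_TNFa against IL4_IL13, and Jak1, Tyk2 and Stat6 stay within 0.2 of 0.

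Against Control, the widest changes among the 10 genes were those of Cish and Socs1. Both were scarcely detected in Control macrophages and rose with IL-4 and IL-13, then further with TNFa, whereas Socs3 fell with IL-4 and IL-13 and rose above Control when TNFa was present. The product of Cish, CIS, binds cytokine receptors at the sites where STAT5 docks, and the gene is a known target of STAT5. STAT factors bind palindromes of the form TTCNNNGAA, and STAT6 also binds the form with a 4-base spacer, TTCNNNNGAA. In RefSeq's promoter windows on GRCm38.p6, which run from 250 bases before to 50 bases after each gene's start and were matched for all 10 genes, TTCNNNGAA was found in Cish and Socs3, and TTCNNNNGAA in 0 of the 10. Each motif reads the same on both strands, TTCNNNGAA is present in 8.30% of the 32851 windows of that length and TTCNNNNGAA in 6.95%. Cish holds 2 copies, as do 0.457% of windows with 2 or more. The stretches that hold a match are shown because these are the inhibitors whose levels moved most or reversed, and the 250 bases before the start of Socs1, which rose with Cish, are shown beside them as a window with neither motif. Capitals mark the matches. The Cish stretch is chr9:107296659-107296688 on the plus strand and begins at the RefSeq start, inside the first exon of a longer annotated transcript. The Socs3 stretch is chr11:117969502-117969530 on the minus strand, with its match starting 154 bases before the RefSeq start. This stretch lies inside the annotated gene, which begins at 117970047 on that strand. The Socs1 stretch is chr16:10785537-10785786 on the minus strand.
Cish: TTCCTGGAAagTTCTTGGAAatctgtcaaa
Socs3: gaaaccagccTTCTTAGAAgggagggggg
Socs1: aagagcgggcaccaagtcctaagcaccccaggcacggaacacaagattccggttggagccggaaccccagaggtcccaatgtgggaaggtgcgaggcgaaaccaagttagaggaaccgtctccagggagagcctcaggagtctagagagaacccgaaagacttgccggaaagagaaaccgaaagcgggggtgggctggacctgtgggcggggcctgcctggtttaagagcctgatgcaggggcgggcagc
A match describes letters in the window and shows no binding, and its absence says nothing of sites outside the window.

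Cish (chr9:107296026-107302784, plus strand), with its tandem match above, ranged from 117 to 142 CPM (median 128) in IL4_IL13_TNFa libraries and from 23.7 to 37.0 CPM (median 32.3) in IL4_IL13 libraries, against 0.192 to 0.637 CPM (median 0.361) in Control libraries. The Control values rest on 4 to 11 counts per library, 41 in all. Every library of a cytokine group lay above every Control library, and every library with TNFa lay above every library without it. The log2 fold change was 6.38 ± 0.16 for IL4_IL13 against Control (83.6-fold, adjusted p = 9.4e-16) and 8.41 ± 0.16 for IL4_IL13_TNFa against Control (339-fold, adjusted p = 3.4e-18). TNFa added to IL-4 and IL-13 gave a 4.06-fold higher level than IL-4 and IL-13 without it (log2 fold change 2.02 ± 0.10, adjusted p = 3.3e-12).

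Socs1 (chr16:10782240-10785536, minus strand) encodes an inhibitor that binds JAK kinases directly and restrains IL-4 and interferon signalling. It ranged from 76.7 to 99.9 CPM (median 81.4) in IL4_IL13_TNFa libraries and from 43.4 to 57.9 CPM (median 45.9) in IL4_IL13 libraries, against 1.05 to 1.82 CPM (median 1.49) in Control libraries, where it had 20 to 33 counts per library. The groups did not overlap. Socs1 was 34.1-fold higher in IL4_IL13 than in Control macrophages (log2 fold change 5.09 ± 0.12, adjusted p = 4.4e-16) and 59.2-fold higher in IL4_IL13_TNFa than in Control macrophages (log2 fold change 5.89 ± 0.12, adjusted p = 1.2e-17). Its change with TNFa on top of IL-4 and IL-13 was 1.74-fold (log2 fold change 0.80 ± 0.09, adjusted p = 3.3e-07).

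Socs3 (chr11:117966079-117970047, minus strand) encodes an inhibitor best known for binding gp130, the shared chain of the IL-6 family receptors. It ranged from 13.5 to 22.2 CPM (median 19.8) in IL4_IL13_TNFa libraries, from 2.22 to 4.76 CPM (median 2.68) in IL4_IL13 libraries and from 6.74 to 9.51 CPM (median 9.04) in Control libraries. Here too the groups did not overlap, and the IL4_IL13 libraries were the lowest. The gene was 2.84-fold lower in IL4_IL13 than in Control macrophages (log2 fold change -1.51 ± 0.16, adjusted p = 2.7e-07). It was 6.30-fold higher in IL4_IL13_TNFa than in IL4_IL13 macrophages (log2 fold change 2.66 ± 0.16, adjusted p = 5.6e-11) and 2.22-fold higher than in Control macrophages (log2 fold change 1.15 ± 0.15, adjusted p = 1.1e-06).

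The inhibitors therefore stood in different proportion to each other in each group. The log2 ratio of Socs3 to Socs1 within a library, per kilobase of exon, was -2.49 to -1.80 (mean -2.15) in IL4_IL13_TNFa libraries, -4.68 to -3.17 (mean -4.04) in IL4_IL13 libraries and 2.17 to 2.98 (mean 2.59) in Control libraries. Socs3 exceeded Socs1 in all 6 Control libraries and lay below it in all 12 cytokine libraries. On the log2 scale the ratio differed by -6.63 for IL4_IL13 against Control, by 1.89 for IL4_IL13_TNFa against IL4_IL13 and by -4.74 for IL4_IL13_TNFa against Control, each with an exact permutation p of 0.00216 (adjusted 0.00244). The log2 ratio of Cish to Socs1 was -0.77 to -0.35 (mean -0.53) in IL4_IL13_TNFa libraries, -2.01 to -1.56 (mean -1.77) in IL4_IL13 libraries and -3.95 to -1.98 (mean -3.04) in Control libraries, where it rests on few counts of Cish. Cish thus gained on Socs1 with each addition. Without scaling by exon length the mean ratio in IL4_IL13_TNFa libraries was 0.61 on the log2 scale. Which of the 2 genes stood higher there depends on the lengths used. The differences on the log2 scale were 1.27 for IL4_IL13 against Control (exact permutation p = 0.00433, adjusted 0.00433), 1.23 for IL4_IL13_TNFa against IL4_IL13 and 2.5 for IL4_IL13_TNFa against Control (exact permutation p = 0.00216 for both, adjusted 0.00244).

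**Figure D3:**
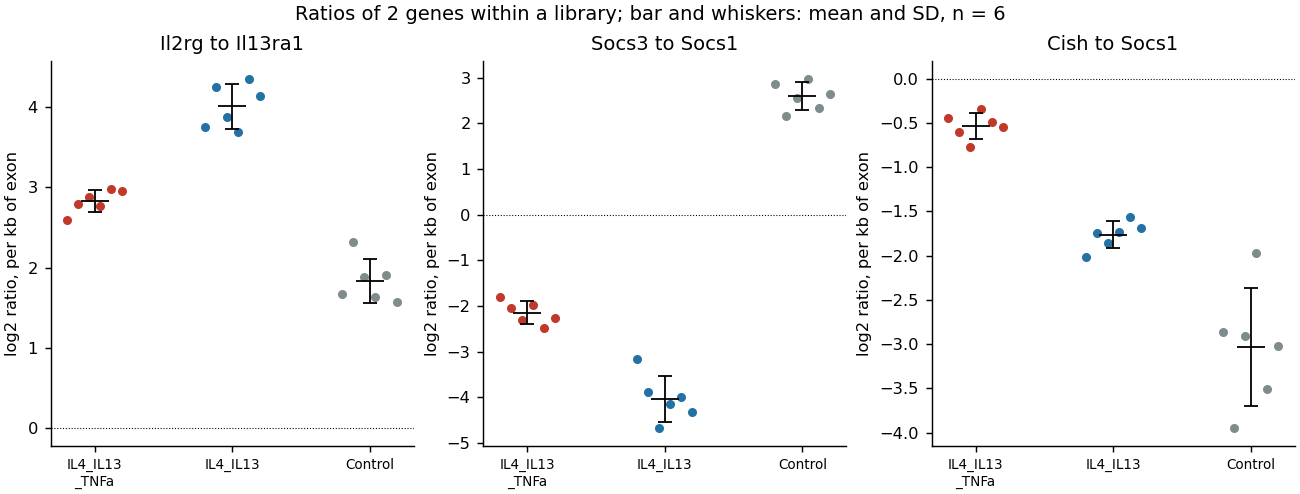
Log2 ratio of 2 genes within each library, per kilobase of exon (vertical axis), for the 6 libraries of the IL4_IL13_TNFa, IL4_IL13 and Control groups (points), with the mean and SD; the dotted line marks equal levels. Socs3 to Socs1 is above 0 in Control libraries and below 0 in the others, and Il2rg to Il13ra1 is highest in the IL4_IL13 group.

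Set side by side per kilobase of exon, the order of the 10 transcripts differed between groups. Exon length here is that of the exons of all annotated transcripts of a gene merged, 6419 bases for Cish with 5 transcripts. Ranks between genes depend on these lengths. In IL4_IL13_TNFa macrophages Il2rg stood first at 75.1 ± 3.02 CPM per kb (SD, n = 6), ahead of Stat6 at 67.9 ± 2.21 and Jak1 at 43.9 CPM per kb. Below these came Socs1 at 29.0, then Tyk2 at 21.8 and Cish at 19.96, which overlapped, and then Il4ra at 15.96, Il13ra1 at 10.6, Socs3 at 6.57 and Jak3 at 4.73 CPM per kb, the last pair overlapping. In IL4_IL13 macrophages Stat6 led at 66.1 and Jak1 followed at 40.5 CPM per kb. Tyk2 at 20.6, Il2rg at 16.8 and Socs1 at 16.7 overlapped their neighbours in that order, Il4ra stood at 9.54, Cish at 4.92 and Jak3 at 4.90 overlapped, and Il13ra1 at 1.05 and Socs3 at 1.03 CPM per kb were lowest and overlapped. In Control macrophages Stat6 at 75.6 and Jak1 at 40.9 CPM per kb again led, Tyk2 at 21.5 and Il4ra at 21.3 overlapped, and Il2rg stood at 12.2 and Jak3 at 7.09. Il13ra1 at 3.46 and Socs3 at 2.96 overlapped, and Socs1 at 0.488 and Cish at 0.0589 CPM per kb were last. All other neighbours in each order had ranges that did not overlap.

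**Figure D4:**
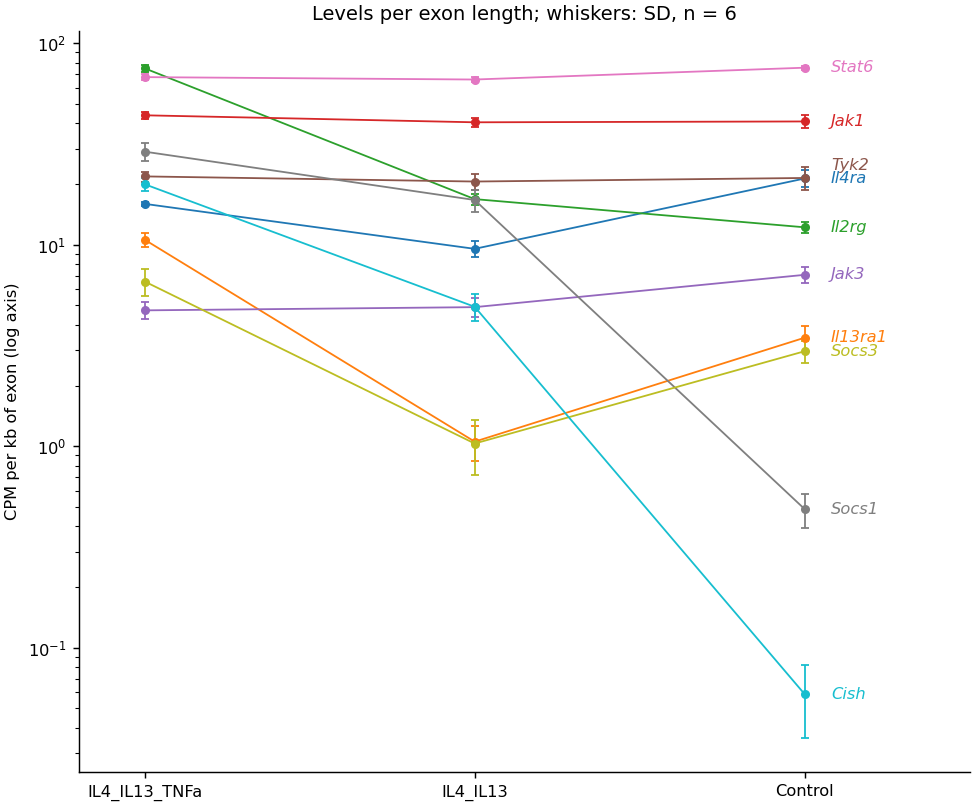
Mean level of each of the 10 genes in CPM per kilobase of exon (vertical log axis; whiskers, SD over 6 libraries) in the IL4_IL13_TNFa, IL4_IL13 and Control groups. Il2rg passes Stat6 in the IL4_IL13_TNFa group, and Socs1 and Cish lie below all others in the Control group.

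Other genes of the pathway were counted from lists, and the counts are to be read against the shares of all genes: 29.3% higher and 29.7% lower for IL4_IL13 against Control, 30.3% and 29.3% for IL4_IL13_TNFa against IL4_IL13, and 36.4% and 37.3% for IL4_IL13_TNFa against Control. With lists this short, a difference of a few genes from those shares was not tested. Of the receptor chains that pair with the common gamma chain, 3 of 6 passed the filter on low counts. All 3 were higher in IL4_IL13_TNFa than in IL4_IL13 macrophages: Il21r, for the IL-21 receptor, with a log2 fold change of 1.97 (adjusted p = 2.1e-13), Il7r, for the IL-7 receptor, with 0.69, and Il15ra, for the IL-15 receptor, with 0.49. Il7r also rose with IL-4 and IL-13 alone (log2 fold change 0.84) and Il15ra fell (-0.43), while Il21r did not pass (0.07). Scaled by library totals, Il15ra did not pass in IL4_IL13_TNFa against IL4_IL13 (0.28, adjusted p = 0.085). Il2ra, Il2rb and Il9r had at most 26 counts in all libraries of any group together.

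Among 8 tested chains of other receptors that signal through JAK1 or TYK2, 1 was higher and 5 were lower in IL4_IL13 than in Control macrophages (59.0% of all genes passed in either direction), at a median of -0.50 on the log2 scale. Il6st, which encodes gp130, rose (log2 fold change 1.36), and Il10ra and Ifnar2, chains of the IL-10 and type I interferon receptors, fell (-1.04 and -1.0). With TNFa added to IL-4 and IL-13, 4 were higher and 2 lower (59.6% of all genes passed), at a median of 0.40. Ifnar1, the other type I interferon chain, had a log2 fold change of 1.32, Il10rb, the second IL-10 receptor chain, 0.73, and Ifngr1, for the interferon-gamma receptor, -0.97. Between IL4_IL13_TNFa and Control macrophages 4 were higher and 4 lower (73.8% of all genes passed), at a median of -0.31, with Il6st at 2.02, Il10ra at -1.32 and Ifngr1 at -1.28.

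Of the other JAK and STAT genes, Jak2 and Stat5a were higher at each step and Stat5b passed in no comparison. Of 6 tested, 2 were higher and 3 lower in IL4_IL13 than in Control macrophages, beside 29.3% and 29.7% of all genes. In IL4_IL13_TNFa 3 were higher and 0 lower than in IL4_IL13, beside 30.3% and 29.3%. Between IL4_IL13_TNFa and Control 2 were higher and 3 lower, beside 36.4% and 37.3%. Jak2, a kinase that can act in place of TYK2 on IL-13Ra1, had log2 fold changes of 1.08 for IL4_IL13 against Control, 1.91 for IL4_IL13_TNFa against IL4_IL13 and 2.99 for IL4_IL13_TNFa against Control. Stat5a, one of the paired STAT5 genes, had log2 fold changes of 0.73, 1.93 and 2.67 in the same order, whereas its paralog Stat5b passed in none of the 3 (-0.08, 0.02 and -0.05). Stat2, of the type I interferon pathway, fell in IL4_IL13 against Control (-0.94) and in IL4_IL13_TNFa against Control (-0.52). Its log2 fold change in IL4_IL13_TNFa against IL4_IL13 was 0.42 (adjusted p = 0.021), which did not pass without IL4_IL13_TNFa replicate 2 (0.33, adjusted p = 0.0604) or with libraries scaled by totals (0.22, adjusted p = 0.22). With libraries scaled by totals, 2 of the 6 were lower in IL4_IL13_TNFa than in IL4_IL13.

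Of the other SOCS genes, 3 of 5 were higher and 1 lower in IL4_IL13 than in Control macrophages, beside 29.3% and 29.7% of all genes. In IL4_IL13_TNFa 2 were higher and 2 lower than in IL4_IL13, beside 30.3% and 29.3%. Between IL4_IL13_TNFa and Control 3 were higher and 0 lower, beside 36.4% and 37.3%. Socs2, an inhibitor best known for restraining growth hormone signalling, averaged 41.8 CPM in IL4_IL13_TNFa and 25.9 CPM in IL4_IL13 macrophages, against 1.17 CPM in Control macrophages. Its log2 fold changes were 4.46 for IL4_IL13 against Control (adjusted p = 1.4e-13), 0.69 for IL4_IL13_TNFa against IL4_IL13 and 5.15 for IL4_IL13_TNFa against Control. Socs6 rose with IL-4 and IL-13 (1.09) and fell when TNFa was added (-0.48), as did Socs5 (0.43 and -0.33), and Socs7 was higher with TNFa added (0.42). Socs4 passed in none of the 3 comparisons. Scaled by library totals, 2 of the 5 were lower in IL4_IL13_TNFa than in Control, and with no filter 0 were lower in IL4_IL13 than in Control. The direction of Socs7 in IL4_IL13_TNFa against Control (0.24, adjusted p = 0.00057) turned to -0.01 when libraries were scaled by their totals.

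**Figure D5:**
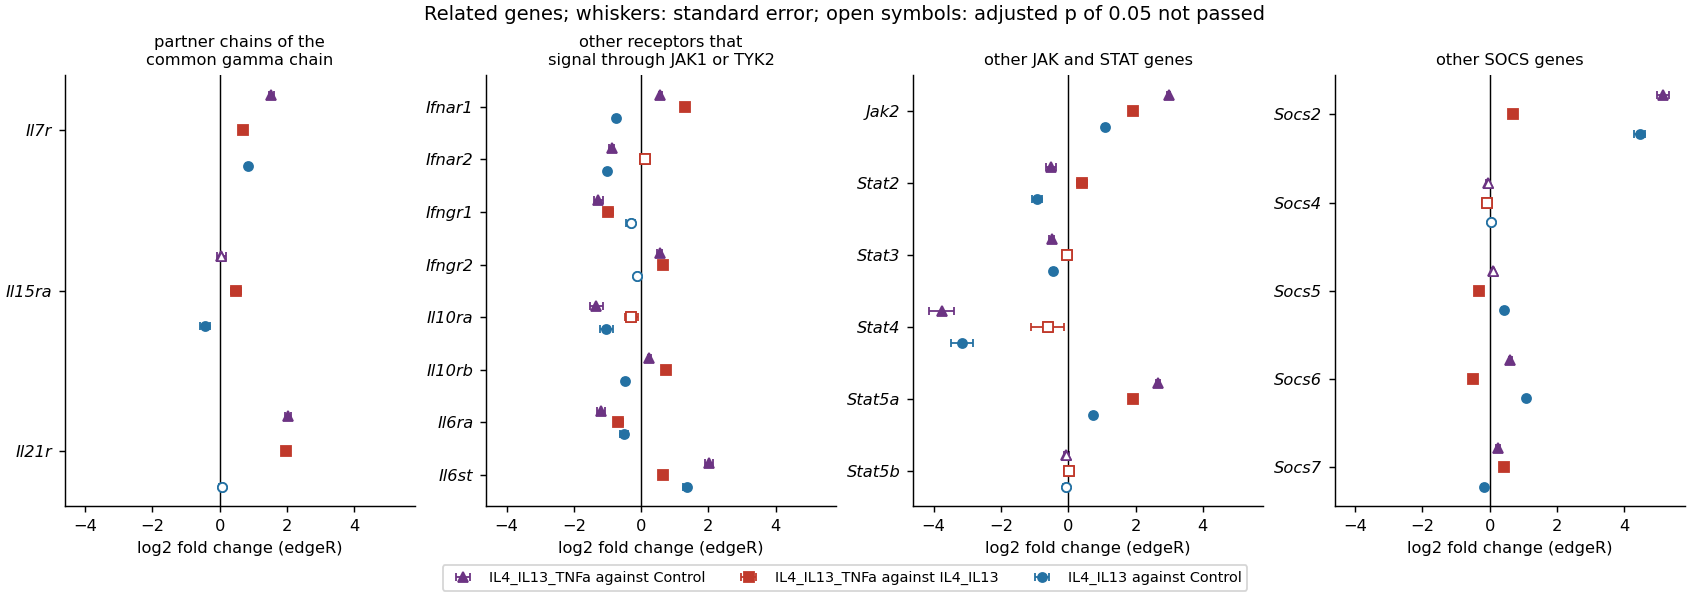
Log2 fold changes (horizontal axis; whiskers, SE of the edgeR estimate) of the tested partner chains of the common gamma chain, other receptors that signal through JAK1 or TYK2, other JAK and STAT genes and other SOCS genes in the 3 comparisons, with open symbols where the adjusted p did not pass 0.05. Jak2, Stat5a and Il21r lie well above 0 for IL4_IL13_TNFa against IL4_IL13, and Socs2 stands furthest right for both cytokine groups against Control.

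Of 12 tested phosphatases, PIAS proteins and other brakes on JAK-STAT signalling, 4 were higher and 4 lower in IL4_IL13 than in Control macrophages, beside 29.3% and 29.7% of all genes. In IL4_IL13_TNFa 3 were higher and 5 lower than in IL4_IL13, beside 30.3% and 29.3%, and 6 were higher and 6 lower than in Control, beside 36.4% and 37.3%. The medians on the log2 scale were -0.03, -0.05 and -0.14 in that order. With libraries scaled by their totals, 1 was higher and 10 were lower in IL4_IL13_TNFa than in IL4_IL13, and 2 were higher in IL4_IL13_TNFa than in Control, and with no filter 1 was higher in IL4_IL13_TNFa than in IL4_IL13. Inpp5d, which encodes the lipid phosphatase SHIP1, had log2 fold changes of -1.0 for IL4_IL13 against Control, -0.57 for IL4_IL13_TNFa against IL4_IL13 and -1.57 for IL4_IL13_TNFa against Control. Ptpn6, which encodes the tyrosine phosphatase SHP-1, fell in both cytokine groups against Control (-0.87 and -0.95). Ptpn1, for the phosphatase PTP1B, rose with IL-4 and IL-13 (0.46), Pias3, for a STAT3 inhibitor, was lower with TNFa added (-1.06, and -1.37 against Control), and Ptprc, for CD45, was higher (0.58).

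In the second branch of IL-4 signalling, which runs through the adaptor IRS2 to PI3 kinase, 3 of 9 genes were higher and 3 lower in IL4_IL13 than in Control macrophages, close to the 29.3% and 29.7% of all genes. In IL4_IL13_TNFa 2 were higher and 5 lower than in IL4_IL13, beside 30.3% and 29.3% of all genes, and 2 were higher and 5 lower than in Control, beside 36.4% and 37.3%. The medians on the log2 scale were 0.11, -0.31 and -0.22 in that order. Irs2 averaged 72.8 CPM in IL4_IL13 macrophages against 26.6 CPM in Control macrophages (log2 fold change 1.45, adjusted p = 4.3e-11). With TNFa added it was lower than in IL4_IL13 (log2 fold change -2.31, adjusted p = 8.2e-14) and lower than in Control (-0.85). Pik3cg, for a catalytic PI3 kinase subunit, had log2 fold changes of -1.08, -0.66 and -1.75 in the order of comparisons just used. Gab2, for a docking adaptor, was lower with TNFa added (-0.84), and Shc1, for another adaptor, rose with IL-4 and IL-13 (0.83) and stood higher again in IL4_IL13_TNFa against Control (1.21).

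Among 6 cofactors of STAT6, 1 was higher and 4 lower in IL4_IL13 than in Control macrophages, beside 29.3% and 29.7% of all genes. In IL4_IL13_TNFa 2 were higher and 3 lower than in IL4_IL13, beside 30.3% and 29.3%. Between IL4_IL13_TNFa and Control 1 was higher and 4 lower, beside 36.4% and 37.3%. The medians on the log2 scale were -0.49, -0.17 and -0.52 in that order. With no filter, 1 of the 6 was lower in IL4_IL13_TNFa than in IL4_IL13. Parp14, which encodes a coactivator of STAT6, fell with IL-4 and IL-13 (log2 fold change -1.28) and was higher with TNFa added (1.04). Snd1, for another coactivator, was higher with TNFa added (0.82), and Ncoa1, for a histone acetyltransferase, was lower (-0.81), and both moved the same way against Control (1.18 and -1.29). Trim24 fell in both cytokine groups against Control (-0.57 for IL4_IL13 and -0.76 for IL4_IL13_TNFa), and Ep300, for the acetyltransferase p300, fell with IL-4 and IL-13 (-0.49). All 16 tested target genes of STAT6 were higher in IL4_IL13 than in Control macrophages, at a median of 4.92 on the log2 scale. The genes of that list were picked because they are known to respond in this way. With TNFa added 7 of the 16 were higher and 7 lower (median -0.05), while Stat6 itself did not pass. The changes of the 16 with TNFa added spanned -4.95 to 6.72 on the log2 scale, so that median hides large changes in both directions.

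For each of the 10 genes, the 9949 genes with a mean of at least 5 CPM were ranked by how closely their log2 CPM, centred on the mean over the 18 libraries, followed it, measured as a root mean square difference. The nearest to Cish was Pdcd1lg2, which encodes the checkpoint ligand PD-L2 and is in the list of STAT6 targets, at 0.143, followed by Il4i1, an amino acid oxidase, at 0.297, where the median gene stood at 3.43. Pdcd1lg2 averaged 45.7 CPM in IL4_IL13_TNFa and 12.5 CPM in IL4_IL13 macrophages, against 0.0657 CPM in Control macrophages. A prior count of 2 entered the log2 CPM, which narrows differences near 0, where both genes lay in Control macrophages. In the edgeR fit against Control, Pdcd1lg2 had log2 fold changes of 7.47 for IL4_IL13 and 9.34 for IL4_IL13_TNFa. Those of Cish were 6.38 and 8.41. The nearest to Socs1 were Mcf2l at 0.3 and Socs2 at 0.401, with a median gene at 2.57. Il2rg was followed most closely by Stat5a at 0.163 and Gadd45b at 0.192 (median gene 1.15). Stat5a averaged 232 CPM in IL4_IL13_TNFa and 60.9 CPM in IL4_IL13 macrophages, against 36.6 CPM in Control macrophages. For Il13ra1 they were Trpm2 at 0.358 and Slc39a4 at 0.36 (median gene 1.38), for Socs3 Orai2 at 0.230 and Ampd3 at 0.249 (median gene 1.14), and for Il4ra Msrb1 at 0.107 and Cd37 at 0.131 (median gene 0.585). The genes that varied less had close neighbours among the many others that vary little: Brd2 and Ddx5 for Jak1, Mob3a and Gpsm3 for Jak3, Mroh1 and Crtc2 for Tyk2, and Rsrc2 and Edc4 for Stat6. These distances are descriptions over the same 18 libraries.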

How the data were processed

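Poly(A)-selected, strand-specific libraries were made from 18 macrophage samples, per the labels' protocols. The authors deposited raw counts per Ensembl gene. The submitters' processing notes list, without roles, FastQC 0.11.5, RSEM 1.3.0, featureCounts 1.5.1, STAR (2.5.2, 2.5.2b), bcl2fastq 2.20.0.422 and the builds GRCm38 and mm10; the annotation release is not given in the sources used here. GENCODE M21 gave symbols for 48434 of 48794 rows. Depth was 14793404 to 20056125 counts per library. The 13177 genes passing edgeR's filterByExpr were scaled by TMM and tested with edgeR 4.0.16 in R 4.3.3 (robust quasi-likelihood, all 18 libraries in 1 fit, no block), with Benjamini-Hochberg adjustment over all of them. Ratios (0.5 added to each count) were compared by exact two-sided permutation over libraries. Scripts were tested on simulated data. DESeq2 1.42.0 and other alternatives appear in the closing section.

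Whether each library is its own animal or culture is not stated, so the p-values reflect library-to-library spread, which may be technical. Over the 18 pairs of same-numbered libraries from different groups, deviations from the group means correlated at 0.128 to 0.671. The numbers thus appear to pair the libraries, as seen in the data and not stated in the labels. Control replicate 4 was an exception, as in each cytokine group a library of another number correlated with it more closely. No libraries of a group agreed within sampling noise. The 10 genes and the lists were chosen with earlier results of these data known. All 10 genes were named. From each list, up to 3 genes per comparison were named. These were the genes past the threshold that changed most, with an average of 5 CPM or more in the group where they were higher. Stat5b and Socs4, and values of Il21r and Socs5 in further comparisons, were added after they were seen. Of the STAT6 targets the counts, medians and span of changes are given, and Pdcd1lg2 alone is named, for its likeness to Cish. The 5 B cell, 5 mast cell and basophil and 5 neutrophil markers summed to at most 3.20, 2.97 and 2.31 CPM in any library, and the 6 stromal markers to 17.2 to 553 CPM, with 0 of 4 tested genes past the threshold in each comparison. Protein sequences were not used here, and 1 gene is not reported here.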

Additional observations from a re-analysis of the deposited data

Results flagged for a closer look

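In 3 of the 39 groups of 6 libraries examined (10 genes and 3 ratios in 3 groups), 1 library lay far from the other 5, where chance gives about 1 in 20. Jak3 was at 20.4 CPM in IL4_IL13_TNFa replicate 1, against 25.5 to 27.1 CPM in the other libraries of that group. Tyk2 was at 109 CPM in Control replicate 1, against 150 to 162 CPM in the other Control libraries. Socs3 was at 4.76 CPM in IL4_IL13 replicate 1, against 2.22 to 2.91 CPM in the other IL4_IL13 libraries. All 3 libraries carry replicate number 1.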

How the results depend on the processing

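Alternatives were DESeq2's size factors, library totals, no filter, a stricter filter (5 CPM in 6 libraries), DESeq2's test, a fit of only the libraries compared, the replicate block, each library left out in turn and the libraries numbered 1 left out. For the ratios they were the replicate block, a pseudocount of 1 and the libraries left out. With the replicate block the ratios were compared by an exact sign-flip test over 6 pairs, whose smallest possible p is 0.0312. Counts of genes called, counts of the 10 genes called and the 3 ratios kept their side of the threshold and direction under all of these, the counts within 1.5 times. With the replicate block, which pairs same-numbered libraries, no call among the 10 genes changed; Il13ra1, for example, had a log2 fold change of 3.33 in IL4_IL13_TNFa against IL4_IL13.

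Directions that turned were those of estimates not past the threshold, except Socs7, and the cause was not tested. With no filter, IL4_IL13 against Control was 0.047 for Jak1 and 0.0029 for Tyk2. Library totals gave -0.090 for Jak1, -0.12 for Tyk2 and -0.17 for Stat6 in IL4_IL13_TNFa against IL4_IL13, and -0.15 for Jak1, -0.22 for Tyk2 and -0.0057 for Socs7 in IL4_IL13_TNFa against Control, where Jak1 (adjusted p = 0.0127) and Tyk2 (adjusted p = 0.0177) then passed as lower. In the last comparison Tyk2 was -0.028 with the stricter filter and -0.036 without the libraries numbered 1. With 1 library left out, Jak1 spanned -0.051 (without Control replicate 1) to 0.0074 (without IL4_IL13 replicate 6) in IL4_IL13 against Control, Jak3 -0.085 (without IL4_IL13 replicate 2) to 0.0044 (without IL4_IL13_TNFa replicate 1) in IL4_IL13_TNFa against IL4_IL13, and Tyk2 -0.044 (without Control replicate 1) to 0.054 (without Control replicate 3) in IL4_IL13_TNFa against Control. With no filter, Stat6 lost its call in IL4_IL13_TNFa against Control (-0.08, adjusted p = 0.233) and Jak1 gained one (0.18, adjusted p = 0.0115); Jak1 also gained one in IL4_IL13_TNFa against IL4_IL13 when only those libraries were fitted (adjusted p = 0.0479). Depth limits Cish in Control libraries most, where a library held 4 to 11 counts.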
